A study of Mus musculus with 12 samples.

Results

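The Wnt target genes examined here were 9 genes, *Axin2*, *Sp5*, *Lef1*, *Tcf7*, *Nkd1*, *Dkk1*, *Notum*, *Wnt3* and *Cdx1*, chosen by name as genes whose transcription is known to respond to Wnt signaling. They were 9 of the 24627 genes counted in every library, and all 9 were among the 13191 genes that passed the filter on low counts. Their expression was read from RNA-seq of XY mouse embryonic stem (ES) cells in which *Xist*, the RNA that silences the X chromosome, is switched on from its own locus by doxycycline (DOX), with total RNA as the input. The study asked which repeats of *Xist* are needed for this silencing and for Polycomb recruitment. Values are given as CPM, the counts of a gene relative to the total of its library, with that total scaled by TMM factors.

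The 6 groups came from 3 lines, each sampled at day 2 of differentiation by LIF withdrawal, grown with 1.5 µg/ml DOX or without it (noDOX), with 2 replicates in each group. *Xist* FL carries the full-length transcript under the TetO promoter. *Xist* ΔA is an earlier published line that lacks the A repeat, and *Xist* ΔB+C was derived from *Xist* FL by CRISPR/Cas9 deletion of the B and C repeats and picked as a single clone. All lines carry the inducible promoter at the single X chromosome and were kept without feeder cells. Each genotype is therefore represented by 1 line, so the deletion and any other property of that line cannot be told apart. Library preparation started from 1000 ng of RNA, except for replicate 2 of *Xist* ΔB+C DOX, where a low input protocol with 100 ng was used.

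Wnt proteins bind Frizzled receptors and the co-receptors Lrp5 and Lrp6 at the cell surface. This stops the complex of Axin, Apc and Gsk3 from marking β-catenin for destruction, and β-catenin then joins the DNA-binding factors of the TCF/LEF family at its target genes. Several targets encode inhibitors of the pathway itself and so provide negative feedback. In mouse embryos the pathway is required to form the primitive streak, and in ES cells it influences self-renewal and the exit toward mesendoderm.

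Each library held between 31337490 and 41240470 counts. No libraries were identical. The study describes the replicates as biological duplicates, while the labels do not say whether they were separate cultures, so the p-values measure the spread between these samples. *Xist* lay between 2.48 and 8.27 CPM in the 6 libraries whose labels state noDOX and between 570 and 1791 CPM in the 6 DOX libraries. With DOX its level was higher in *Xist* ΔB+C than in *Xist* ΔA (log2 1.19, SE 0.21, adjusted p = 0.00613 by edgeR's quasi-likelihood test). The differences of *Xist* ΔB+C and *Xist* ΔA from *Xist* FL with DOX were 0.73 and −0.46, and neither passed. Without DOX it was 2.66-fold higher in *Xist* ΔA than in *Xist* FL (adjusted p = 0.0101 by the same test). The summed level of 5 core pluripotency markers (*Pou5f1*, *Sox2*, *Sall4*, *Lin28a* and *Utf1*) lay between 3034 and 4358 CPM, and all 5 were detected in every library. Samples with the same replicate number deviated together, as the processing section describes. Each comparison was therefore also fitted with the replicate number as a block, and that value is given where it changes a member's call, and as counts for the pathway lists.

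Promoter sequences are shown for *Sp5* and *Dkk1*, because these are the members in which the letters CTTTGA, the core of the sequence that TCF/LEF factors bind, were found upstream of the only start that the RefSeq table lists for the gene. The windows cover the 250 bases before the start in GRCm38.p6, from RefSeq. Capitals mark CTTTGA, or TCAAAG where the match lies on the opposite strand, and the longer form CTTTGAT where it occurs.
Sp5, chr2:70474673-70474922, plus strand: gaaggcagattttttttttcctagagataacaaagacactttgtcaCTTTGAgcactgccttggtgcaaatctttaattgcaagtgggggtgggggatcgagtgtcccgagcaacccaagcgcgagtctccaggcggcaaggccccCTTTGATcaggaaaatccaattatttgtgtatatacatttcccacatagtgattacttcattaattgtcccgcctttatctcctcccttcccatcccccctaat
Dkk1, chr19:30549497-30549746, minus strand: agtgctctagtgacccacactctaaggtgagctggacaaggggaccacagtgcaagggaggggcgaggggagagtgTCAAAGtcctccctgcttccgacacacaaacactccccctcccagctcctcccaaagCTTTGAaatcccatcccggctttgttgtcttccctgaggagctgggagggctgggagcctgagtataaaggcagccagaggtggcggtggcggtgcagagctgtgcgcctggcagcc

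The first match in *Sp5* began 204 bases before the start and the second, CTTTGAT, 104 bases before it, both on the strand of the gene. In *Dkk1* the matches began 174 bases before the start on the opposite strand and 117 bases before it on the strand of the gene. The GENCODE span of *Dkk1*, given below with its values, starts further upstream than this RefSeq start, so that 169 of the 250 bases, including the second match, lie inside the gene by that annotation, whereas 0 do for *Sp5*. The table held 11 promoters for 7 of the members, all except *Notum* and *Cdx1*. CTTTGA was present on either strand in a promoter of 3 members, the third being *Lef1*, where the 2 matches lay in the fourth of its 4 listed promoters, all 250 bases of it inside the gene. CTTTGAT, whose matches are also counted under CTTTGA, was present in 1 member, *Sp5*. Among all 32851 promoters of the same length, 13.8% held CTTTGA and 3.21% held CTTTGAT. These are shares of promoters, whereas the counts above are of members, some of which have several promoters.

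Per kilobase of exon, *Tcf7* had the highest level of the 9 genes and *Dkk1* the lowest. The mean over the 12 libraries was 35.5 ± 4.14 CPM per kb (SD, n = 12) for *Tcf7*, 16.4 ± 11.5 for *Sp5*, 12.2 ± 5.49 for *Wnt3*, 7.97 ± 3.32 for *Axin2* and 7.82 ± 2.30 for *Lef1*. The remaining genes were at 4.05 ± 2.03 for *Notum*, 1.87 ± 0.536 for *Nkd1*, 1.61 ± 1.07 for *Cdx1* and 0.778 ± 0.517 CPM per kb for *Dkk1*. *Tcf7* stood above the others by more than these SDs, whereas *Sp5* and *Wnt3*, *Axin2* and *Lef1*, and *Nkd1* and *Cdx1* were neighbours whose means lay within each other's SD. The SD covers all 6 groups and not the error within a group.

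**Figure D1:**
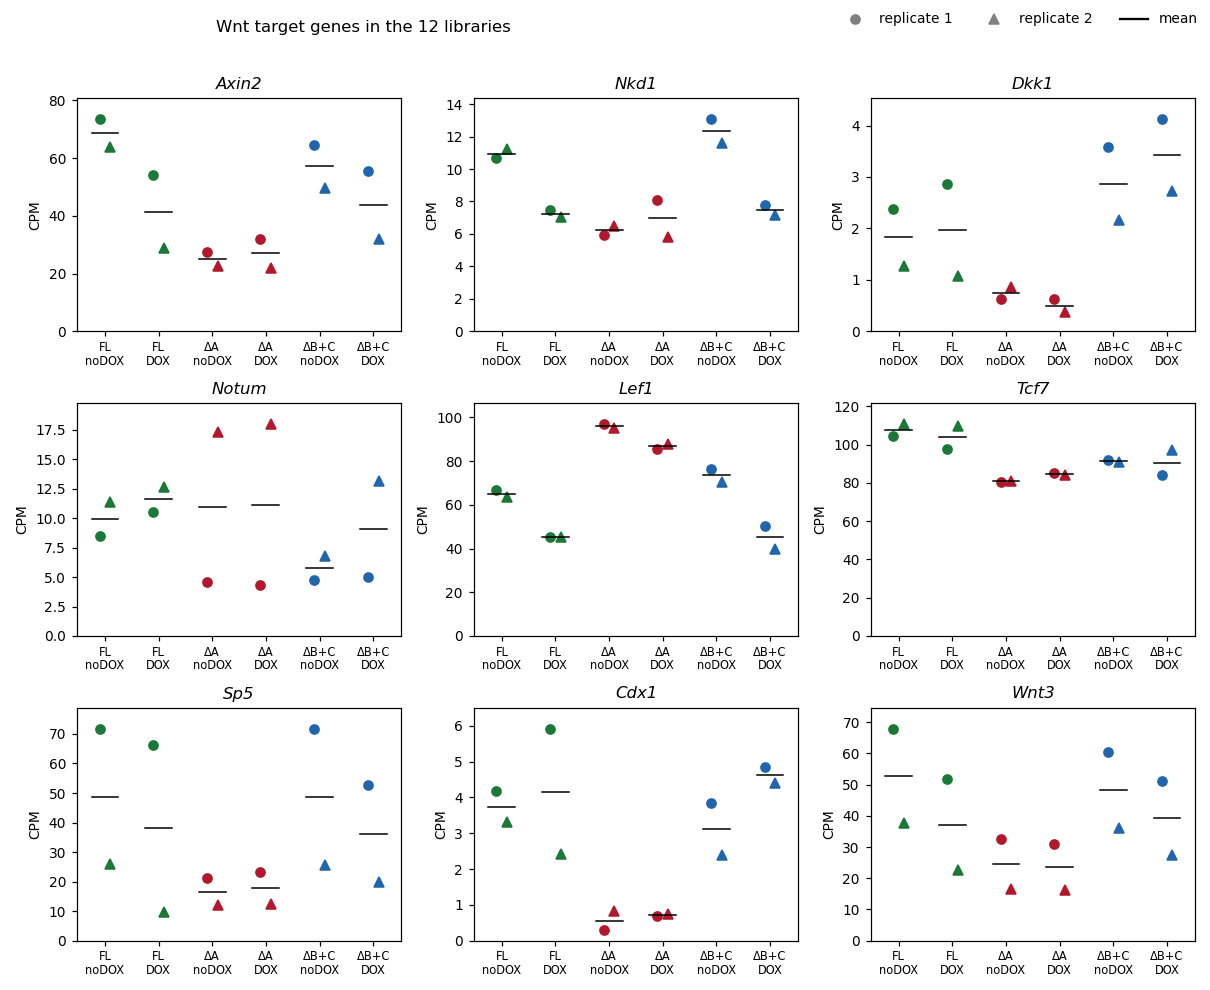
Level of each Wnt target gene in CPM (vertical axis, from 0) in the 6 groups (horizontal axis), with circles for replicate 1, triangles for replicate 2 and a bar for their mean. *Lef1* in the 4 *Xist* ΔA libraries (85.5 to 96.95 CPM) sits above the other 8 (39.8 to 76.6 CPM), *Cdx1* and *Dkk1* sit below them, and *Notum*, *Sp5* and *Wnt3* differ widely between replicates.

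All calls between lines involved the *Xist* ΔA line. Without DOX, *Axin2*, *Nkd1*, *Tcf7* and *Cdx1* were lower in *Xist* ΔA than in *Xist* FL and *Lef1* was higher, so that 5 of 9 members passed the test (edgeR's quasi-likelihood test, adjusted p under 0.05 by Benjamini-Hochberg), 1 higher and 4 lower. Over all tested genes 9.84% passed in this comparison, 4.30% higher and 5.54% lower. The median log2 (fold change) of the members was −1.11, and that of all tested genes was 0.00. With the replicate number as a block 7 members passed, 1 higher and 6 lower, with *Wnt3* and *Dkk1* added, and the share of all genes rose to 33.4%, 16.2% higher and 17.2% lower. With fewer libraries these calls were lost while the differences stayed close to those with all libraries: 0 members passed without *Xist* FL noDOX replicate 1 or 2 or without *Xist* ΔA noDOX replicate 1, 1 passed without *Xist* ΔA noDOX replicate 2, and 4 passed without *Xist* ΔB+C noDOX replicate 2. Over the calls lost, the adjusted p by edgeR's quasi-likelihood test lay between 0.0522 and 0.198, and the log2 (fold change) was between −1.32 and −1.60 for *Axin2*, −0.75 and −0.88 for *Nkd1*, −0.36 and −0.46 for *Tcf7*, 0.53 and 0.59 for *Lef1* and −2.16 and −2.91 for *Cdx1*. Over all genes the number called also fell, to as few as 259 from 1298.

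With DOX in both lines, 2 of 9 members passed in the same comparison, *Lef1* higher and *Cdx1* lower in *Xist* ΔA, against 13.9% of all tested genes, 6.87% higher and 7.03% lower. The median of the members was −0.61 and that of all genes 0.02. With the replicate number as a block 6 members passed, 1 higher and 5 lower (*Axin2*, *Tcf7*, *Dkk1*, *Wnt3* and *Cdx1*), against 37.1% of all genes, 18.7% higher and 18.4% lower. *Tcf7* also passed without *Xist* ΔB+C DOX replicate 1 or 2 (adjusted p = 0.0419 and 0.0418 by edgeR's quasi-likelihood test) and *Dkk1* without *Xist* FL DOX replicate 2 (−2.49, adjusted p = 0.0413). Between *Xist* ΔB+C and *Xist* ΔA, which uses the same *Xist* ΔA libraries and is therefore not a separate line of evidence on them, 2 of 9 members were higher in *Xist* ΔB+C without DOX and 0 lower, against 6.69% of all genes, 3.81% higher and 2.87% lower. With DOX 2 were higher and 1 lower, against 18.5% of all genes, 8.96% higher and 9.51% lower. The block brought these counts to 6, 5 higher and 1 lower, without DOX and to 5, 4 higher and 1 lower, with DOX, against 27.9% (15.2% higher, 12.8% lower) and 43.7% (21.9% higher, 21.8% lower) of all genes.

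*Axin2*, *Tcf7*, *Notum* and *Wnt3* lie on chromosome 11, and the 1113 tested genes of that chromosome were shifted as a whole in *Xist* ΔA against *Xist* FL. Their median was −0.35 without DOX and −0.41 with DOX on the log2 scale, and that of the other autosomes 0.03 and 0.04. The part of this shift in the members' differences was not tested, and the difference relative to the chromosome's median is given beside each of these genes. The 4 *Xist* ΔA libraries did not overlap with the other 8 libraries for 3 members, *Lef1* above and *Cdx1* and *Dkk1* below. Over all tested genes 17.6% did not overlap in this way, 8.72% above and 8.89% below.

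**Figure D2:**
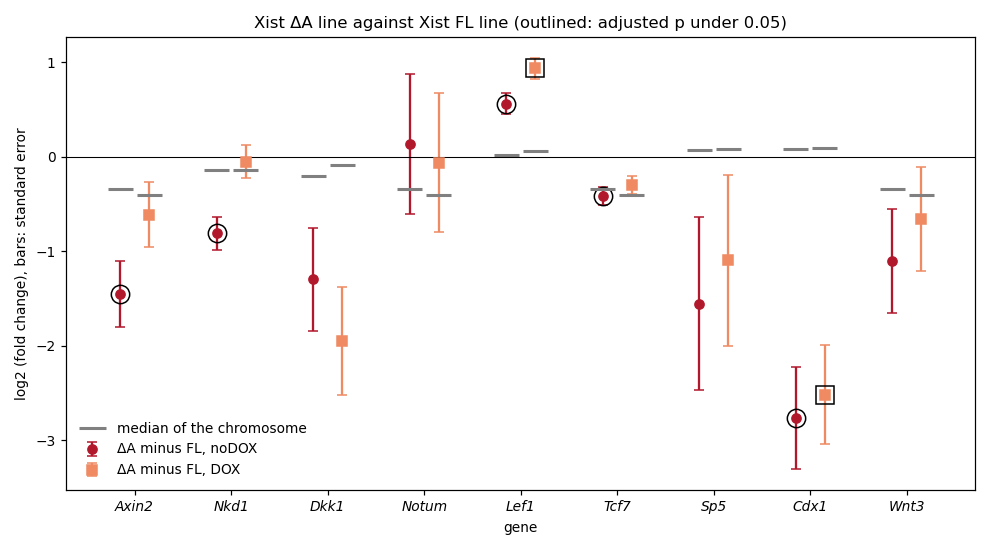
Log2 (fold change) of the *Xist* ΔA line against the *Xist* FL line for each gene (vertical axis), without DOX (circles) and with DOX (squares), with bars for the standard error, outlines for adjusted p under 0.05 and grey lines for the median of all tested genes on the same chromosome. *Cdx1* shows the largest differences (−2.76 and −2.52), *Lef1* is above 0 in both, and *Tcf7* without DOX lies next to the chromosome 11 median.

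*Wnt3* encodes the ligand that is needed for primitive streak formation (mm10 chr11:103774150-103817957, plus strand). It was at 67.9 and 37.5 CPM in *Xist* FL noDOX, 51.8 and 22.6 in *Xist* FL DOX, 60.6 and 36.2 in *Xist* ΔB+C noDOX and 51.0 and 27.4 in *Xist* ΔB+C DOX, for replicates 1 and 2. In *Xist* ΔA it was at 32.5 and 16.4 CPM without DOX and 30.8 and 16.1 CPM with DOX. Within each replicate number the *Xist* ΔA libraries were the lowest, whereas replicate 1 of *Xist* ΔA overlapped with replicate 2 of the other lines. The log2 (fold change) of *Xist* ΔA against *Xist* FL was −1.11 (SE 0.55, adjusted p by edgeR's quasi-likelihood test 0.244) without DOX and −0.66 (SE 0.55, adjusted p = 0.464) with DOX, which is −0.76 and −0.25 relative to the chromosome 11 median. Blocked by replicate number, these differences had an adjusted p of 1.82e-05 and 0.000732. Against *Xist* ΔA, *Xist* ΔB+C differed by 0.98 without DOX and by 0.74 with DOX (0.78 and 0.45 relative to that median), with block adjusted p of 4.23e-05 and 0.000188.

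*Axin2* encodes a scaffold of the β-catenin destruction complex and is widely used as a readout of the pathway (chr11:108920349-108950783, plus strand). Its level was 73.4 and 63.9 CPM in *Xist* FL noDOX, 54.1 and 28.9 in *Xist* FL DOX, 64.7 and 49.6 in *Xist* ΔB+C noDOX and 55.6 and 32.0 in *Xist* ΔB+C DOX. It was 27.5 and 22.6 CPM in *Xist* ΔA noDOX and 32.0 and 22.05 in *Xist* ΔA DOX. The *Xist* ΔA noDOX libraries were below every *Xist* FL and *Xist* ΔB+C library, and *Xist* ΔA DOX replicate 1 was above *Xist* FL DOX replicate 2. Without DOX the level in *Xist* ΔA was 2.74-fold lower than in *Xist* FL (log2 −1.45, SE 0.35, adjusted p = 0.0326 by edgeR's quasi-likelihood test), which is −1.11 relative to the chromosome 11 median. The call was lost without either *Xist* FL noDOX library or either *Xist* ΔA noDOX library (log2 −1.32 to −1.60, adjusted p by edgeR's quasi-likelihood test between 0.103 and 0.198). With DOX the difference was −0.61 (SE 0.34, adjusted p = 0.270, and 0.0178 with the block), or −0.20 relative to that median. *Xist* ΔB+C was above *Xist* ΔA by 1.19 (SE 0.34, adjusted p = 0.0759, and 0.000824 with the block) without DOX and by 0.70 (SE 0.34, adjusted p = 0.188, and 0.00777 with the block) with DOX, or 0.99 and 0.41 relative to the median.

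*Nkd1* encodes an inhibitor that binds Dishevelled (chr8:88521354-88594884, plus strand). It was at 10.7 and 11.2 CPM in *Xist* FL noDOX and at 13.1 and 11.6 in *Xist* ΔB+C noDOX, and these 4 libraries were above the other 8. In *Xist* ΔA it was at 5.96 and 6.51 CPM without DOX and at 8.10 and 5.84 with DOX, and it was at 7.46 and 7.05 in *Xist* FL DOX and at 7.76 and 7.14 in *Xist* ΔB+C DOX. Thus the lines differed without DOX, and with DOX their libraries overlapped. The log2 (fold change) of *Xist* ΔA against *Xist* FL was −0.81 (SE 0.17, adjusted p = 0.0218 by edgeR's quasi-likelihood test) without DOX and −0.06 (SE 0.17, adjusted p = 0.866) with DOX. Relative to the chromosome 8 median these were −0.67 and 0.09. *Xist* ΔB+C was 1.98-fold higher than *Xist* ΔA without DOX (log2 0.98, SE 0.17, adjusted p = 0.0149) and differed by 0.10 (adjusted p = 0.744) with DOX. Relative to that median the differences from *Xist* ΔA were 0.71 and −0.15. Leaving out 1 library of the groups compared ended both calls, with log2 values of −0.75 to −0.88 and 0.89 to 1.06 and an adjusted p by edgeR's quasi-likelihood test of up to 0.120.

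*Dkk1* encodes a secreted antagonist that occupies Lrp5 and Lrp6 (chr19:30545863-30549665, minus strand), and its promoter is shown above. It had the lowest level of the 9 genes per kilobase. It was at 0.632 and 0.864 CPM in *Xist* ΔA noDOX and at 0.625 and 0.373 in *Xist* ΔA DOX, which rest on 26, 28, 25 and 12 read pairs. In *Xist* FL it was at 2.39 and 1.26 CPM without DOX and 2.85 and 1.07 with DOX, and in *Xist* ΔB+C at 3.57 and 2.17 without DOX and 4.12 and 2.72 with DOX. Every *Xist* ΔA library was below every other library, and the *Xist* ΔB+C libraries were above the *Xist* FL library of the same number and treatment. Relative to the chromosome 19 median, the log2 (fold change) of *Xist* ΔA against *Xist* FL was −1.09 without DOX and −1.85 with DOX. That of *Xist* ΔB+C against *Xist* ΔA was 1.60 and 2.55. The differences that follow are not relative to this median. With DOX, *Xist* ΔB+C was 6.75-fold above *Xist* ΔA (log2 2.75, SE 0.57, adjusted p = 0.0118 by edgeR's quasi-likelihood test), a call that was lost without *Xist* ΔA DOX replicate 1 (3.19, adjusted p = 0.0540) or replicate 2 (2.45, adjusted p = 0.0708). The other 3 differences that involve *Xist* ΔA passed the test with the block and not without it. They were −1.30 in *Xist* ΔA against *Xist* FL without DOX (SE 0.55, adjusted p = 0.173 and with the block 0.0169), −1.95 with DOX (SE 0.57, adjusted p = 0.0536 and with the block 0.00224) and 1.95 in *Xist* ΔB+C against *Xist* ΔA without DOX (SE 0.54, adjusted p = 0.0674 and with the block 0.00196). The last of these also passed without *Xist* FL DOX replicate 1 or 2 (adjusted p = 0.0498 for each by edgeR's quasi-likelihood test).

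*Notum* encodes a secreted esterase that removes the lipid from Wnt proteins (chr11:120653788-120661175, minus strand). It was at 4.59 and 17.3 CPM in *Xist* ΔA noDOX, 4.30 and 18.0 in *Xist* ΔA DOX, 4.74 and 6.83 in *Xist* ΔB+C noDOX and 4.97 and 13.1 in *Xist* ΔB+C DOX. In *Xist* FL it was at 8.52 and 11.4 CPM without DOX and 10.5 and 12.7 with DOX. Replicate 2 was above replicate 1 in all 6 groups, and *Xist* ΔA held both the lowest and the highest library of the series. Differences between lines lay between −0.91 and 0.13 on the log2 scale, with standard errors of 0.739 to 0.754, and none passed the test in either fit. Relative to the chromosome 11 median, *Xist* ΔA against *Xist* FL was 0.48 without DOX and 0.35 with DOX.

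*Lef1*, a DNA-binding partner of β-catenin (chr3:131110471-131224356, plus strand), was the only member whose level was higher in *Xist* ΔA than in both other lines with and without DOX. It was at 96.95 and 95.2 CPM in *Xist* ΔA noDOX and at 85.5 and 88.1 in *Xist* ΔA DOX. In *Xist* FL it was at 66.8 and 63.5 CPM without DOX and 45.4 and 45.5 with DOX, and in *Xist* ΔB+C at 76.6 and 70.4 without DOX and 50.5 and 39.8 with DOX. The *Xist* ΔA libraries, the noDOX libraries of the other lines and the DOX libraries of the other lines formed 3 ranges that did not overlap. *Xist* ΔA was 1.48-fold above *Xist* FL without DOX (log2 0.56, SE 0.11, adjusted p = 0.0165 by edgeR's quasi-likelihood test) and 1.91-fold above it with DOX (0.93, SE 0.11, adjusted p = 0.00151). The first of these calls was lost without any one of the 4 libraries compared (log2 0.53 to 0.59, adjusted p by edgeR's quasi-likelihood test between 0.0820 and 0.104). *Xist* ΔB+C was below *Xist* ΔA by −0.94 with DOX (SE 0.11, adjusted p = 0.00121) and by −0.39 without DOX (SE 0.11, adjusted p = 0.0729, and 0.00745 with the block). The latter passed without *Xist* ΔB+C DOX replicate 1 or 2 (adjusted p = 0.0255 and 0.0252 by edgeR's quasi-likelihood test).

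*Tcf7*, which encodes the related factor TCF1 (chr11:52252371-52283014, minus strand), varied least. It was at 104 and 111 CPM in *Xist* FL noDOX, 97.8 and 110 in *Xist* FL DOX, 92.0 and 91.2 in *Xist* ΔB+C noDOX and 83.9 and 97.4 in *Xist* ΔB+C DOX. In *Xist* ΔA it was at 80.5 and 81.1 CPM without DOX and 85.1 and 84.0 with DOX. The *Xist* ΔA libraries were below all *Xist* FL libraries and overlapped with *Xist* ΔB+C DOX replicate 1. *Tcf7* was 1.33-fold lower in *Xist* ΔA than in *Xist* FL without DOX (log2 −0.41, SE 0.10, adjusted p = 0.0285 by edgeR's quasi-likelihood test), and relative to the chromosome 11 median the difference was −0.07. That call was lost without *Xist* ΔB+C noDOX replicate 2, which is in neither group (adjusted p = 0.0522), or without any one of the 4 libraries compared (log2 −0.36 to −0.46, adjusted p by edgeR's quasi-likelihood test up to 0.165). With DOX the difference was −0.30 (SE 0.09, adjusted p = 0.0696, and 0.00988 with the block), against a chromosome 11 median of −0.41.

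*Sp5* encodes a zinc-finger factor of the Sp family (chr2:70474923-70477729, plus strand), and its promoter is the one shown above with CTTTGAT. It was at 71.7 and 25.8 CPM in *Xist* FL noDOX, 66.4 and 9.80 in *Xist* FL DOX, 71.7 and 25.6 in *Xist* ΔB+C noDOX and 52.5 and 19.8 in *Xist* ΔB+C DOX. In *Xist* ΔA it was at 21.2 and 11.97 CPM without DOX and 23.2 and 12.3 with DOX. In replicate 1 the *Xist* ΔA libraries were below the other lines, whereas the lowest library of the series was *Xist* FL DOX replicate 2. The log2 (fold change) of *Xist* ΔA against *Xist* FL was −1.55 (SE 0.91, adjusted p = 0.319 by edgeR's quasi-likelihood test) without DOX and −1.10 (SE 0.90, adjusted p = 0.461) with DOX. Neither passed the test with the block (adjusted p = 0.0530 and 0.225), and the spread between replicates was wide in every group.

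*Cdx1*, a caudal-type homeobox gene that patterns the body axis (chromosome 18, position 61018862 to 61036199, minus strand), differed more between *Xist* ΔA and *Xist* FL than any other member, with and without DOX. It was at 0.292 and 0.833 CPM in *Xist* ΔA noDOX and at 0.700 and 0.745 in *Xist* ΔA DOX, which rest on 12, 27, 28 and 24 read pairs. In *Xist* FL it was at 4.16 and 3.31 CPM without DOX and 5.91 and 2.41 with DOX, and in *Xist* ΔB+C at 3.84 and 2.41 without DOX and 4.85 and 4.39 with DOX. All 4 *Xist* ΔA libraries were below the other 8, whose lowest value was 2.41 CPM. The level in *Xist* ΔA was 6.79-fold lower than in *Xist* FL without DOX (log2 −2.76, SE 0.54, adjusted p = 0.0160 by edgeR's quasi-likelihood test) and 5.73-fold lower with DOX (−2.52, SE 0.53, adjusted p = 0.0161). *Xist* ΔB+C was 5.68-fold above *Xist* ΔA without DOX (2.51, SE 0.54, adjusted p = 0.0304) and 6.38-fold above it with DOX (2.67, SE 0.53, adjusted p = 0.0100). Leaving out 1 library ended each of these calls at least once. The difference from *Xist* FL was −2.16 (adjusted p = 0.0917 by edgeR's quasi-likelihood test) without *Xist* ΔA noDOX replicate 1, −2.59 and −2.91 without *Xist* FL noDOX replicate 1 or 2, −1.74 (adjusted p = 0.0855) without *Xist* FL DOX replicate 1, and −2.47 and −2.56 without *Xist* ΔA DOX replicate 1 or 2. The difference of *Xist* ΔB+C from *Xist* ΔA without DOX was lost without any one of the 6 noDOX libraries, with values between 1.90 (without *Xist* ΔA noDOX replicate 1) and 3.41 (without replicate 2) and an adjusted p of up to 0.156. With DOX it was lost without *Xist* ΔA DOX replicate 1 (2.63, adjusted p = 0.0727) or replicate 2 (2.72, adjusted p = 0.0531).

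Between *Xist* ΔB+C and *Xist* FL, edgeR called 0 of the 9 members without DOX and 0 with DOX, where 0.0227% and 0% of all tested genes passed. At an unadjusted p under 0.05 there were 1 member without DOX and 0 with DOX, DESeq2 and limma-voom called 0 in both, and the block added none, where 0.993% and 3.07% of all genes passed. At that unadjusted threshold 383 of all 13191 tested genes were higher and 388 lower without DOX. With DOX 460 were higher and 575 lower. The log2 (fold change) of the members lay between −0.78 (*Notum*, SE 0.75) and 0.65 (*Dkk1*, SE 0.50) without DOX and between −0.36 (*Notum*, SE 0.74) and 0.81 (*Dkk1*, SE 0.50) with DOX. *Dkk1* was the gene with the largest positive difference in both conditions, and neither passed the test (adjusted p by edgeR's quasi-likelihood test 0.975 and 0.753, or 0.295 and 0.131 when blocked).

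The sums of some cell type markers differed between the lines as well, and for the primitive streak list the lines overlapped with DOX. The summed level of 8 primitive streak and mesendoderm markers, 6 of them averaging 1 CPM or more, was 60.8 and 51.6 CPM in *Xist* ΔA noDOX, 282 and 204 in *Xist* FL noDOX and 249 and 134 in *Xist* ΔB+C noDOX. With DOX it was 79.5 and 52.7 CPM in *Xist* ΔA, 152 and 42.9 in *Xist* FL and 157 and 48.7 in *Xist* ΔB+C. These markers include *T*, *Mixl1*, *Eomes* and *Evx1*, which are also known Wnt-responsive genes. The 6 trophoblast markers summed to between 90.1 and 154 CPM in *Xist* ΔA and between 111 and 777 CPM in the other lines. Of these, *Krt8* and *Krt18* reached 516 and 222 CPM, whereas *Tfap2c*, *Cdx2* and *Hand1* reached at most 31.2, 11.7 and 7.21 CPM. *Elf5* lay between 0 and 0.221 CPM. The 4 formative and primed state markers summed to between 1833 and 2129 CPM in *Xist* ΔA and between 1095 and 1819 CPM in the other lines. The 7 endoderm markers summed to between 23.8 and 60.9 CPM and the 4 neural ectoderm markers to between 67.2 and 156 CPM. The 7 fibroblast markers, 4 of them averaging 1 CPM or more, summed to between 21.1 and 85.2 CPM, and *Lum* was at 0 in at least 1 library. The part of these cell types in the members' differences was not tested, and in bulk samples fewer cells of a type and less RNA per cell cannot be told apart.

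The effect of *Xist* induction was read from DOX against noDOX within each line, and because every line used here carries the inducible promoter, induction and DOX itself cannot be told apart. *Lef1*, *Nkd1*, *Axin2*, *Wnt3* and *Sp5* were at lower levels with DOX than without it in both replicates of the *Xist* FL line and the *Xist* ΔB+C line, and of these *Lef1* in *Xist* ΔB+C passed the test. In *Xist* ΔB+C, 1 of 9 members passed, *Lef1*, and it fell, against 2.94% of all tested genes, 2.13% lower. In *Xist* FL, edgeR called 0 of 9, against 1.24% of all genes, 1.09% lower, with 2 members at an unadjusted p under 0.05, 1 called by DESeq2 (*Lef1*) and 0 by limma-voom. At that unadjusted threshold 708 of all 13191 tested genes were higher and 1072 lower. With the replicate number as a block 4 members fell in *Xist* FL (*Axin2*, *Lef1*, *Nkd1* and *Wnt3*) against 13.9% of all genes (8.13% lower). In *Xist* ΔB+C 3 fell with the block (*Lef1*, *Nkd1* and *Wnt3*), against 21.9% of all genes in either direction. Of the 13191 tested genes, 1583 were lower in that comparison. No member rose in either line. In *Xist* ΔA, edgeR called 0 of 9 in both fits, with 0 at an unadjusted p under 0.05 and 0 by DESeq2 and limma-voom, where 0.00758% of all genes passed, and 0.0227% with the block. In that line 32 of all tested genes were higher and 117 lower at the unadjusted threshold.

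*Lef1* fell 1.63-fold with DOX in *Xist* ΔB+C (log2 −0.70, SE 0.11, adjusted p = 0.0156 by edgeR's quasi-likelihood test). The values are those given above, 76.6 and 70.4 CPM without DOX against 50.5 and 39.8 with DOX. The call was lost without *Xist* ΔB+C noDOX replicate 1 (log2 −0.64, adjusted p = 0.102), noDOX replicate 2 (−0.76, adjusted p = 0.0787) or DOX replicate 2, the low input library (−0.54, adjusted p = 0.0688). It was also lost where only the libraries of this line were fitted (−0.70, adjusted p = 0.256). In *Xist* FL the difference was −0.52 (SE 0.11, adjusted p = 0.0706, and 0.00359 with the block) and in *Xist* ΔA −0.15 (SE 0.11, adjusted p = 1.00). The difference in *Xist* FL passed without *Xist* ΔB+C DOX replicate 1 or 2, which are in neither group (adjusted p = 0.0182 and 0.0179 by edgeR's quasi-likelihood test).

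*Nkd1* differed by −0.72 in *Xist* ΔB+C (SE 0.17, adjusted p = 0.0616 by edgeR's quasi-likelihood test and, using the block, 0.00604) and by −0.59 in *Xist* FL (SE 0.17, adjusted p = 0.169, and 0.0228 with the block). The former passed without *Xist* ΔA DOX replicate 1 or 2 (adjusted p = 0.0482 and 0.0471). In *Xist* ΔA it differed by 0.16 (SE 0.17, adjusted p = 1.00). *Axin2* differed by −0.73 in *Xist* FL (SE 0.34, adjusted p = 0.395, and 0.0119 with the block), by −0.38 in *Xist* ΔB+C (SE 0.34, adjusted p = 0.599, and 0.0882 with the block) and by 0.11 in *Xist* ΔA. In *Xist* FL the difference of *Axin2* was −0.44 in replicate 1 and −1.14 in replicate 2. *Wnt3* differed by −0.51 in *Xist* FL (SE 0.54, adjusted p = 0.735, and 0.00452 with the block) and by −0.30 in *Xist* ΔB+C (SE 0.54, adjusted p = 0.823, and 0.0371 with the block). *Tcf7* differed by at most 0.07 in any line, and *Sp5*, *Dkk1*, *Notum* and *Cdx1* passed the test in no line in either fit.

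**Figure D3:**
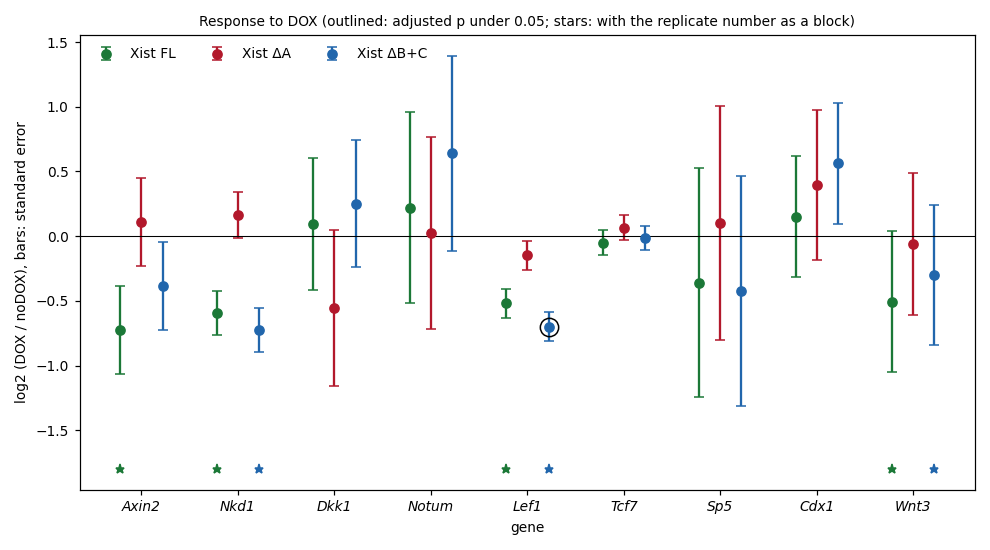
Log2 (DOX / noDOX) of each gene (vertical axis) in the 3 lines, with bars for the standard error, an outline for adjusted p under 0.05 and stars for adjusted p under 0.05 with the replicate number as a block. *Lef1* in *Xist* ΔB+C (−0.70) is outlined, and the 7 stars belong to *Axin2*, *Nkd1*, *Lef1* and *Wnt3* in *Xist* FL and to *Nkd1*, *Lef1* and *Wnt3* in *Xist* ΔB+C.

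The response to DOX was also compared between the lines. EdgeR called 0 of 9 members for each of the 3 differences, where 0% (*Xist* ΔA minus *Xist* FL), 0% (*Xist* ΔB+C minus *Xist* FL) and 0.205% (*Xist* ΔB+C minus *Xist* ΔA) of all genes passed. At an unadjusted p under 0.05 there were 2, 0 and 2 members, and DESeq2 and limma-voom called 0 in each. Of all 13191 tested genes, 567, 43 and 701 were positive and 414, 63 and 895 negative at that unadjusted threshold. With the block, *Lef1* and *Nkd1* passed in *Xist* ΔB+C minus *Xist* ΔA, both negative, against 9.32% of all genes, 5.09% negative. In the other differences 0 members passed, against 3.31% (*Xist* ΔA minus *Xist* FL) and 0% of all genes. These 3 differences share libraries and do not stand for 3 separate observations. The summed primitive streak markers given above were also lower with DOX in both replicates of *Xist* FL and *Xist* ΔB+C. The 11 naive pluripotency markers were higher there, at 429 and 528 CPM without DOX against 630 and 678 with DOX in *Xist* FL and at 384 and 512 against 544 and 897 in *Xist* ΔB+C. They were at 333 and 761 against 334 and 834 CPM in *Xist* ΔA. The 4 formative and primed state markers were lower, at 1495 and 1819 against 1369 and 1732 CPM in *Xist* FL and at 1460 and 1684 against 1095 and 1277 in *Xist* ΔB+C, with 2129 and 1846 against 2074 and 1833 in *Xist* ΔA. The part of these markers' cell states in the members' response was not tested.

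Replicate 2 differed from replicate 1 in the same direction in all 6 groups for *Axin2*, *Sp5* and *Wnt3*, which were lower, and for *Notum*, which was higher. In the fit with the block, the term for the replicate number passed the test for 5 of 9 members, 1 higher and 4 lower in replicate 2, against 46.3% of all genes, 22.7% higher and 23.5% lower, so the members' share was near that of all genes. *Wnt3* was 1.91-fold lower (log2 −0.93, SE 0.06, adjusted p = 3.31e-06 by edgeR's quasi-likelihood test) and *Sp5* 2.79-fold lower (−1.48, SE 0.26, adjusted p = 0.00525). *Axin2* was lower by −0.52 (SE 0.09, adjusted p = 0.00176), *Dkk1* by −0.72 (SE 0.19, adjusted p = 0.00954), and *Notum* was higher by 1.09 (SE 0.29, adjusted p = 0.0233). The call of *Notum* was lost without *Xist* ΔB+C DOX replicate 1 (1.03, adjusted p = 0.0771) or replicate 2 (1.03, adjusted p = 0.0763). *Lef1*, *Tcf7*, *Nkd1* and *Cdx1* differed by −0.08, 0.07, −0.11 and −0.37, with an adjusted p between 0.175 and 0.335. *Cdx1* passed without *Xist* ΔA noDOX replicate 1 or 2 (−0.53, adjusted p = 0.0412 and 0.0416).

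**Figure D4:**
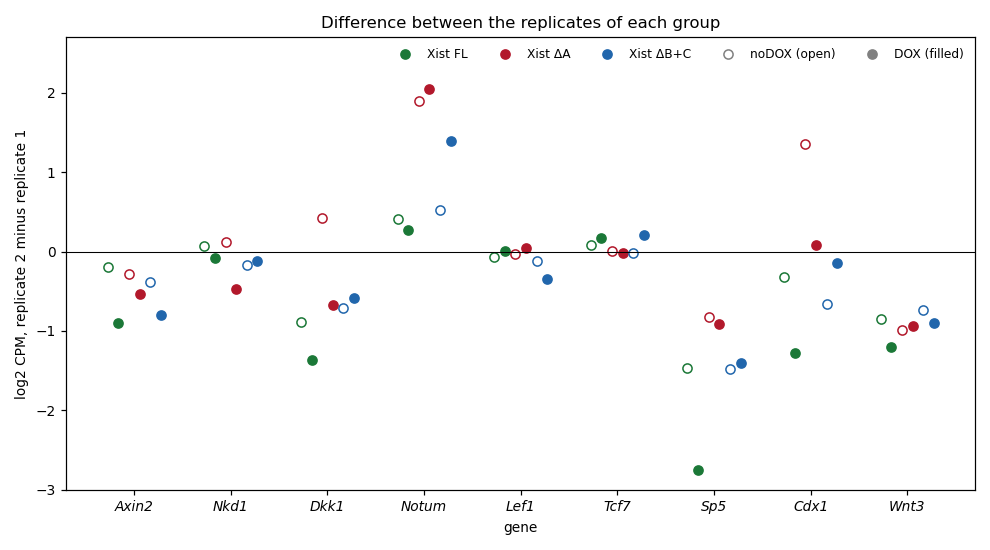
Log2 difference in CPM between replicate 2 and replicate 1 (vertical axis) for each gene in the 6 groups, with open circles for noDOX and filled circles for DOX. All 6 circles lie below 0 for *Axin2*, *Sp5* and *Wnt3* and above 0 for *Notum* (0.27 to 2.05), and those of *Lef1* and *Tcf7* lie near 0.

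The naive and core pluripotency marker sums were higher in replicate 2 than in replicate 1 in every group. Those of the primitive streak, trophoblast, neural ectoderm and fibroblast markers were lower in replicate 2 in every group. For each of these lists the ranges of the replicate numbers overlapped. The primitive streak markers summed to between 60.8 and 282 CPM in replicate 1 and between 42.9 and 204 CPM in replicate 2. The 11 naive pluripotency markers summed to between 333 and 630 CPM in the replicate 1 libraries and between 512 and 897 CPM in the replicate 2 libraries, and the trophoblast markers to between 141 and 777 CPM and between 90.1 and 228 CPM. The labels do not say what a replicate number stands for, and the part of cell state in the replicate differences was not tested.

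Of 102 further genes of the pathway on 7 lists, 83 passed the filter on low counts. The lists are ligands, secretion genes, receptors, inhibitors, the destruction complex, nuclear partners of β-catenin and other responsive genes. Without DOX, *Xist* ΔA differed from *Xist* FL in 2 of 11 tested ligands, both lower, 4 of 17 receptors and co-receptors, 3 higher and 1 lower, and 2 of 13 inhibitors, both higher. Of the destruction complex 1 of 12 was higher, of the nuclear partners 0 of 11 passed, and of the other responsive genes 3 of 17 were lower. Over the 7 lists this was 12 of 83 genes, 6 higher and 6 lower, against 9.84% of all tested genes. With the block it was 38 of 83, 17 higher and 21 lower, against 33.4% of all genes. The block brought the ligands to 4 lower, the receptors to 4 higher and 4 lower, the inhibitors to 2 higher and 3 lower, the destruction complex to 5 higher and 1 lower, the nuclear partners to 2 higher and 1 lower, and the other responsive genes to 4 higher and 7 lower. The secreted inhibitor *Sfrp4* differed most among the inhibitors, at 1.73 and 1.85 CPM in *Xist* FL noDOX and 13.6 and 15.6 in *Xist* ΔA noDOX (log2 3.03, SE 0.21, adjusted p = 0.000109 by edgeR's quasi-likelihood test).

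The ligands *Wnt8a* (17.5 and 28.9 CPM in *Xist* FL noDOX, 6.83 and 6.91 in *Xist* ΔA noDOX, log2 −1.75, SE 0.25) and *Wnt5b* (11.3 and 10.4 against 2.94 and 1.54 CPM, −2.27, SE 0.59) were lower in *Xist* ΔA, with an adjusted p by edgeR's quasi-likelihood test of 0.00428 and 0.0430. *Wnt5b* is best known for signaling without β-catenin. The Frizzled receptor genes *Fzd8* (1.40, SE 0.20) and *Fzd4* (0.96, SE 0.20) were higher and *Fzd10* (−0.92, SE 0.16) was lower, so the receptors did not move one way. *Fgf8*, *Mixl1* and *Eomes*, genes of the primitive streak, were lower by −3.72 (SE 0.84), −3.54 (SE 0.86) and −1.28 (SE 0.29). *Dvl3*, a Dishevelled gene, was higher by 0.39 (SE 0.10) and *Sfrp2* by 0.50 (SE 0.12).

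With DOX, the counts between these lines were 1 of 11 ligands (lower), 2 of 17 receptors (1 higher, 1 lower), 3 of 13 inhibitors (2 higher, 1 lower), 1 of 12 destruction complex genes (higher), 1 of 11 nuclear partners (lower) and 2 of 17 other responsive genes (1 higher, 1 lower). In all 10 of 83 passed, 5 in each direction, against 13.9% of all tested genes, so the share of the lists was near that of all genes, and with the block 34 of 83 passed, 14 higher and 20 lower, against 37.1%. *Sfrp4* was again higher (2.76, SE 0.21), as were *Fzd4* (1.14, SE 0.20) and *Sfrp2* (0.41, SE 0.12), and *Wnt8a* (−0.92, SE 0.24) and *Fzd10* (−0.62, SE 0.16) were again lower. *Kremen1*, a co-receptor for Dkk proteins, was lower by −0.80 (SE 0.11), the co-repressor gene *Tle1* by −0.58 (SE 0.14) and *Nodal* by −0.41 (SE 0.11), and *Myc* was higher by 0.49 (SE 0.12). The destruction complex gene was *Amer1* (1.65, SE 0.21, adjusted p = 0.00194 by edgeR's quasi-likelihood test). *Amer1* is X-linked, and the median of all tested X-linked genes in this comparison was 0.63. The part of that shift in its difference was not tested. Between *Xist* ΔB+C and *Xist* FL, edgeR called 0 genes on any of the 7 lists with or without DOX, where 0.0227% and 0% of all genes passed. With the block 2 of 83 passed without DOX, 1 ligand lower and 1 other responsive gene higher, against 0.993% of all genes. With DOX 3 passed with the block, 1 receptor higher, 1 receptor lower and 1 other responsive gene higher, against 3.07%.

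*Xist* ΔB+C against *Xist* ΔA, on the same *Xist* ΔA libraries, gave *Sfrp4* lower by −3.27 (SE 0.22) without DOX and −3.10 (SE 0.22) with DOX. *Wnt5b* was higher by 2.44 (SE 0.59) and 2.07 (SE 0.58), and *Fzd10* by 1.07 (SE 0.16) and 0.95 (SE 0.16). Of the 17 tested receptors, 3 were higher and 3 lower without DOX and 2 higher and 3 lower with DOX. Over the 7 lists 9 of 83 passed without DOX, against 6.69% of all genes, and 13 of 83 with DOX, against 18.5%. *Ctnnb1*, which encodes β-catenin, was lower in *Xist* ΔB+C without DOX by −0.28 (SE 0.07, adjusted p = 0.0407 by edgeR's quasi-likelihood test). Of the other responsive genes, 0 of 17 passed without DOX in edgeR and 2 with DOX, *Myc* (−0.49, SE 0.12) and *Nodal* (0.38, SE 0.11). With the block 7 of these were higher and 1 lower without DOX, and 5 were higher and 4 lower with DOX. The block brought the lists together to 34 of 83 without DOX (21 higher, 13 lower), against 27.9% of all genes, and to 44 of 83 with DOX (26 higher, 18 lower), against 43.7%.

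Of the X-linked genes on the lists, *Amer1*, *Tbl1x* and *Porcn* are described here, and *Cdx4* is not. *Amer1*, which encodes a membrane protein that binds Apc, was at 26.7 and 25.9 CPM in *Xist* FL noDOX and 10.7 and 8.81 in *Xist* FL DOX, and at 28.8 and 22.03 against 11.8 and 8.44 CPM in *Xist* ΔB+C. In *Xist* ΔA it was at 43.0 and 35.4 CPM without DOX and 33.4 and 27.8 with DOX. It fell with DOX in *Xist* FL (log2 −1.43, SE 0.21, adjusted p = 0.0165 by edgeR's quasi-likelihood test) and in *Xist* ΔB+C (−1.33, SE 0.21, adjusted p = 0.0142), and differed by −0.36 in *Xist* ΔA (SE 0.20, adjusted p = 1.00). *Tbl1x*, a co-repressor subunit, differed by −0.85 in *Xist* FL (SE 0.22, adjusted p = 0.130), −0.71 in *Xist* ΔB+C (SE 0.22, adjusted p = 0.127) and −0.17 in *Xist* ΔA. *Porcn*, which encodes the enzyme that adds the lipid to Wnt proteins, differed by −0.31 in *Xist* ΔB+C as in *Xist* FL (SE 0.38) and by 0.24 in *Xist* ΔA. In the fit without the block, the differences in DOX response between lines did not pass the test for any of the 3 genes. Over the 7 lists 0 of 83 genes passed for each difference in that fit, against at most 0.205% of all genes. With the block 5 of 83 passed for *Xist* ΔA minus *Xist* FL, 3 higher and 2 lower, against 3.31%. Among these were 1 destruction complex gene and 1 nuclear partner, both higher. For *Xist* ΔB+C minus *Xist* ΔA 11 passed, 5 higher and 6 lower, against 9.32%, and for *Xist* ΔB+C minus *Xist* FL 0, against 0%.

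Of the autosomal genes on the lists, *Eomes* fell with DOX in *Xist* FL (log2 −1.59, SE 0.29, adjusted p = 0.0427 by edgeR's quasi-likelihood test) and in *Xist* ΔB+C (−1.38, SE 0.29, adjusted p = 0.0431). In *Xist* ΔB+C the co-receptor gene *Lrp5* also fell (−0.47, SE 0.08) and *Kremen1* rose (0.60, SE 0.11), both with an adjusted p of 0.0230. Over the 7 lists 2 of 83 genes passed in the FL line, 4 in the ΔB+C line and 0 in the ΔA line, against 1.24%, 2.94% and 0.00758% of all genes, and with the block 24, 24 and 0, against 13.9%, 21.9% and 0.0227%. Between replicates 2 and 1, 8 of 11 ligands were lower in replicate 2 and 0 higher, and over the 7 lists 37 of 83 were lower and 16 higher, against 23.5% lower and 22.7% higher over all genes. The ligands with the largest differences there were *Wnt4* (−2.08, SE 0.43), *Wnt6* (−1.79, SE 0.57) and *Wnt10a* (−1.55, SE 0.47), and *Wls*, which carries Wnt proteins to the cell surface, was lower by −1.16 (SE 0.18).

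Likeness to *Axin2* was described by the correlation of log2 CPM over the 12 libraries, among 10551 tested genes averaging 5 CPM or more. These libraries share line, treatment and replicate number, so the values are a description. The most like gene was *T*, which encodes the primitive streak factor Brachyury (r = 0.988 over 12 libraries, rho = 0.965), followed by *Anapc10* (0.977), *Eri1* (0.976), *Ist1* (0.975) and *Mixl1* (0.972). *Anapc10*, *Eri1* and *Ist1* lie on chromosome 8, whose median was shifted between the lines as given above. The part of that shift in their likeness was not tested. The least like were *Tmem131l* (−0.965), *Gga2* (−0.962) and *Dopey2* (−0.959). With the mean of each replicate number removed, r for *T* was 0.987.

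*T* was at 154 and 93.1 CPM in *Xist* FL noDOX, 96.3 and 14.0 in *Xist* FL DOX, 128 and 57.3 in *Xist* ΔB+C noDOX and 98.5 and 20.9 in *Xist* ΔB+C DOX, and at 15.6 and 10.9 CPM in *Xist* ΔA noDOX and 21.2 and 12.2 in *Xist* ΔA DOX. Libraries with high *Axin2* had high *T*, and the 4 *Xist* ΔA libraries and both DOX replicate 2 libraries of the other lines lay at the low end of both genes. Among the members, r with *Axin2* was 0.922 for *Wnt3*, 0.866 for *Sp5*, 0.831 for *Nkd1*, 0.494 for *Tcf7*, −0.318 for *Lef1* and −0.397 for *Notum*. *Lef1* was high in the *Xist* ΔA libraries, where *Axin2* and *T* were at the low end. In *Xist* FL and *Xist* ΔB+C, *Lef1*, *Axin2* and *T* were all lower with DOX in both replicates. *Dkk1* and *Cdx1* were below 5 CPM on average and were not ranked, and their r with *Axin2* was 0.76 and 0.74, against 0.88 with each other.

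**Figure D5:**
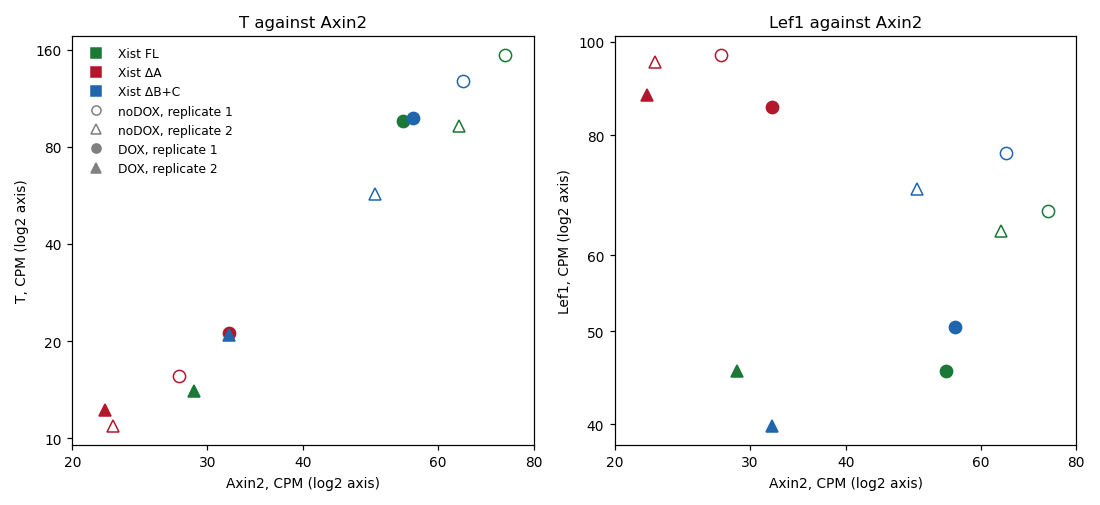
Level of *T* (left) and of *Lef1* (right) against *Axin2* in each of the 12 libraries, in CPM on log2 axes, with colours for the lines, open symbols for noDOX, filled symbols for DOX, circles for replicate 1 and triangles for replicate 2. *T* rises with *Axin2* across the libraries (r = 0.988), whereas *Lef1* is highest in the 4 *Xist* ΔA libraries, where *Axin2* is between 22.05 and 32.04 CPM.

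Exons of 3 members overlap genes annotated on the opposite strand that were not among the genes counted. *Notum* shares 708 of its 2408 exonic bases with *Notumos* and 210 with *Myadml2os*, *Lef1* shares 1208 of 8788 with *Gm43352*, and *Axin2* shares 209 of 5506 with *Gm11670*. The methods do not state that strand was used in counting, so reads of these genes could not be told apart in the shared stretches.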

How the data were processed

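RNA-seq was available for 12 libraries, 2 in each of 6 groups assigned by the sample labels. The authors mapped the read pairs to mm10 with TopHat2 2.1.0 and the refFlat annotation, summarised them over exons by gene with featureCounts 1.5.1, and deposited the raw counts of each library separately. Removal of PCR duplicates is not described. Totals lay between 31337490 and 41240470 counts.

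From these counts, genes reaching 1 CPM in 6 or more of 12 libraries were kept, and TMM factors (0.978 to 1.02) were taken from expressed autosomal genes. The test was edgeR's (version 4.0.16, quasi-likelihood, robust, 1 mean per group, 6 residual degrees of freedom) in R 4.3.3, with Benjamini-Hochberg adjustment over 13191 genes and a threshold of 0.05. CPM in the text was scaled by these factors. Positions and exon lengths came from GENCODE vM21, promoters from RefSeq (GRCm38.p6), and figures from matplotlib 3.10.9.

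The replicate numbers come from the labels. Differences between replicates 2 and 1 correlated over autosomal genes in all 15 pairs of groups (r between 0.390 and 0.782), so the numbers were taken to pair the libraries. The fit with the replicate number as a block had 5 residual degrees of freedom. Other settings were DESeq2 1.42.0, limma-voom (limma 3.58.1), DESeq2 size factors, TMM factors from all genes, library totals, no filter, a filter of 5 CPM, the compared lines alone, and leaving out each library. In the last of these, a group left with 1 library was assumed to vary like the others. The steps were tested on simulated counts.

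The members, the pathway lists and the marker lists were chosen with earlier results of these data known. Besides the 9 members, the text names up to 3 called genes per pathway list and comparison with the largest differences, 3 X-linked pathway genes, and the 5 most and 3 least like genes to *Axin2*. No p-value was adjusted over a list alone and no gene set was tested.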

Additional observations from a re-analysis of the deposited data

Results flagged for a closer look

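The response to DOX differed between *Xist* ΔB+C and *Xist* ΔA for 2 members when the replicate number was a block, by a test of the difference itself. For *Lef1* the difference of the 2 responses was −0.56 on the log2 scale (edgeR's quasi-likelihood test, adjusted p = 0.0200 with the block and 0.214 without it), with lower levels under DOX in 2 of 2 pairs in each line (−0.60 and −0.82 in *Xist* ΔB+C against −0.18 and −0.11 in *Xist* ΔA). For *Nkd1* it was −0.89 (adjusted p = 0.0260 with the block and 0.199 without it), with −0.75 and −0.69 in the pairs of *Xist* ΔB+C and 0.44 and −0.16 for those of *Xist* ΔA. With the block 9.32% of all tested genes passed in this comparison. The response of *Xist* itself differed by 2.72 (SE 0.32, adjusted p = 0.0262 by edgeR's quasi-likelihood test without the block). Its part in the values of *Lef1* and *Nkd1* was not tested. *Xist* ΔA minus *Xist* FL, which shares the *Xist* ΔA libraries, gave 0.37 and 0.76 for *Lef1* and *Nkd1*, with an adjusted p with the block of 0.127 and 0.0786.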

How the results depend on the processing

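With all libraries kept, 964 of 1009 log2 (fold change) values of members stayed on their side of the threshold and in their direction under the other settings. Of these values, 0 called ones changed sign. The numbers of genes called and the correlations are not part of this tally. With 1 library left out this held for 1253 of 1404.

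The replicate block raised the number of genes called in most comparisons. For all genes and with the block it was 1827 for DOX in the *Xist* FL line (163 without it), 3 in the ΔA line (1) and 2887 in the ΔB+C line (388). For *Xist* ΔA against *Xist* FL it was 4403 without DOX (1298) and 4897 with DOX (1833), for *Xist* ΔB+C against *Xist* FL 131 (3) and 405 (0), and for *Xist* ΔB+C against *Xist* ΔA 3686 (882) and 5760 (2436). For the difference of the responses it was 436 for *Xist* ΔA minus *Xist* FL (0) and 1230 for *Xist* ΔB+C minus *Xist* ΔA (27). The members called with the block were 4 for DOX in the FL line, 3 in the ΔB+C line, 2 for the last of these differences, 6 for *Xist* ΔA against *Xist* FL with DOX, and 6 and 5 for *Xist* ΔB+C against *Xist* ΔA without and with DOX.

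DESeq2 called 555, 4 and 1092 genes for DOX in the FL, ΔA and ΔB+C lines, 145 and 382 for these differences of the responses, 2158 for *Xist* ΔA against *Xist* FL and 1626 for *Xist* ΔB+C against *Xist* ΔA without DOX, and 65 and 120 for *Xist* ΔB+C against *Xist* FL. Its members called were 1 and 2 for DOX in the FL and ΔB+C lines, 5 for *Xist* ΔB+C against *Xist* ΔA without DOX and 4 for *Xist* ΔA against *Xist* FL with DOX. For the 3 genes called in *Xist* ΔB+C against *Xist* FL without DOX, TMM factors from all genes and the compared lines alone gave 0 and no filter gave 1. The 27 genes of the difference between *Xist* ΔB+C and *Xist* ΔA became 13 with library totals, 46 with no filter and 0 with the compared lines alone, and no filter gave 4 for *Xist* ΔA minus *Xist* FL. The filter of 5 CPM removed *Cdx1* and *Dkk1* and left 1 member called in each of *Xist* ΔB+C against *Xist* ΔA without DOX, the same with DOX, and *Xist* ΔA against *Xist* FL with DOX. The compared lines alone, a fit with fewer samples, gave 1 gene for DOX in each of the FL and ΔB+C lines (0 members in the latter) and 352 genes with 1 member for *Xist* ΔB+C against *Xist* ΔA without DOX. *Axin2* in *Xist* ΔA against *Xist* FL without DOX had an adjusted p of 0.0688 with no filter (edgeR). The cause of these shifts was not tested unless named.

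With 1 library left out, the genes called lay between 4 and 228 for DOX in the FL line (members 0 to 1), 1 and 1 in the ΔA line and 47 and 334 in the ΔB+C line (members 0 to 2). They lay between 259 and 1495 for *Xist* ΔA against *Xist* FL without DOX (members 0 to 5) and 563 and 2043 with DOX (members 1 to 3), and between 180 and 990 (members 0 to 3) and 864 and 2185 (members 1 to 3) for *Xist* ΔB+C against *Xist* ΔA. For *Xist* ΔB+C against *Xist* FL there were 0 in both conditions, for the differences of the responses 0 to 12, and for the replicate number 5132 to 5749 (members 4 to 6). With 2 libraries a group, these calls rest on few residual degrees of freedom, and *Dkk1* and *Cdx1* in *Xist* ΔA rest on 12 to 28 read pairs a library.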
